A study of Bubalus bubalis with 12 samples.

Results

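The genes described here encode the enzymes that dispose of hydrogen sulfide and methanethiol and that make and break down cysteine, measured in the ruminal wall of Italian Mediterranean dairy buffaloes. They are SELENBP1, SQOR, ETHE1, TST, MPST, SUOX, CBS, CTH, CDO1 and CSAD. Rows were taken by gene name, and all 10 names were present once each among the 34037 genes of the deposited table. The names were chosen by function with the diet difference of SELENBP1 and CDO1 already known, so the diet difference of the 10 genes is given below as a description and nothing is concluded from it. A total mixed ration (TMR) was fed to 6 control animals, while in the 6 treated animals freshly cut ryegrass made up about 30% of the ration. All were multiparous adult buffaloes of 1 commercial dairy, allotted by parity and milk yield, and the wall was sampled at slaughter. The rations were balanced for nitrogen and energy. Besides the ryegrass, the treated ration held less corn silage, alfalfa hay and concentrate, more corn meal, and no soybean meal, calcium carbonate or vitamin supplement. Its share of forage and its fat content were higher, so that these changes cannot be told apart. Each animal gave 1 stranded total RNA library, and between 10531541 and 12948372 fragments per library were counted on genes.

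Rumen microbes reduce sulfate and degrade sulfur amino acids, and thereby release hydrogen sulfide and methanethiol next to the epithelium. SELENBP1 is methanethiol oxidase, which turns methanethiol into hydrogen sulfide, hydrogen peroxide and formaldehyde. Mitochondria then oxidize the sulfide in steps, from SQOR, which hands its electrons to ubiquinone, through the persulfide dioxygenase ETHE1 and the sulfurtransferase TST (rhodanese), to SUOX, the molybdenum enzyme that makes sulfate from sulfite. MPST produces persulfide from a keto acid of cysteine. CBS and CTH form cysteine from homocysteine by transsulfuration and can also release sulfide. CDO1 commits cysteine to breakdown by oxidizing its thiol, and CSAD takes its product towards taurine.

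The primers with which the study followed SELENBP1 and CDO1 by rt-qPCR are shown, since these are the designed sequences for the genes with the largest fold changes of the set. The study reported that rt-qPCR on the same samples gave lower expression of both genes in treated animals, as in its RNA-seq. The rt-qPCR values were not analysed here. The primers are written 5′ to 3′, and no part is in capitals.
SELENBP1 forward: acttctggtaccaacctcgac
SELENBP1 reverse: ctgccagtcccacacgtataa
CDO1 forward: agacattgtttgcctggcct
CDO1 reverse: gcatgtgtcaaaaggcggac
The SELENBP1 primers are 21 bases long with 52.4% G or C each. The CDO1 primers are 20 bases long, with 50% G or C in the forward and 55% in the reverse primer.

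Values are FPKM, fragments scaled by gene length and by the fragments counted in the library, so that levels can be compared between genes. The wall samples were rich in squamous epithelium. The summed FPKM of the 17 listed epithelial genes in the table, led by keratin KRT5, lay between 3434 and 5453 in the control group and between 3389 and 6344 in the treated group. Against this, 10 smooth muscle genes summed to between 28.9 and 51.2 FPKM in the control group and between 15.5 and 40.7 FPKM in the treated group, with MYH11, the smooth muscle myosin, at 2.57 ± 1.27 and 1.45 ± 0.740 FPKM (SD, n = 6 each). The mean log2 level of the smooth muscle list was lower in the treated group by 0.71 (exact permutation p = 0.0693, two-sided), that of the fibroblast list by 0.65 (p = 0.310, same exact test). The study itself singled out MYH11, DES and SYNPO2 of the smooth muscle list on these animals, so that list is not independent of the comparison. The difference was 0.04 for the epithelial list, -0.12 for the endothelial and -0.12 for the leukocyte list (exact permutation p = 0.842, 0.801 and 0.626). Unlike the sums, these mean levels took only genes that passed the read filter. These were 17 epithelial, 8 smooth muscle, 9 fibroblast, 6 endothelial and 4 leukocyte genes. Of 6 hepatocyte genes, 5 had a mean under 0.1 FPKM. Of 6 adipocyte genes, ADIPOQ and LEP were at 0 in all libraries, PLIN1 and PLIN4 had means under 0.1 FPKM and CIDEC stood at 0.497 FPKM, but CIDEA stood at 24.0 ± 8.48 FPKM for controls and 23.7 ± 6.76 for treated animals (SD, n = 6 each), which brought the sum of the list to between 16.3 and 40.4 FPKM.

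The 10 genes spanned mean levels from 1.14 to 635 FPKM. ETHE1, TST and SELENBP1 were the highest 3 in each of the 12 animals, and CDO1 was the lowest in each. Averaged over all animals, ETHE1 stood at 635, TST at 559, SELENBP1 at 529, SQOR at 175, MPST at 120, SUOX at 72.9, CSAD at 15.7, CBS at 10.1, CTH at 8.79 and CDO1 at 1.14 FPKM. ETHE1, TST and SELENBP1 were thus above the level of 98.8% or more of the 12742 genes tested, while CDO1 was above that of only 11.5%. In RNA, the sulfide and sulfite oxidation genes SQOR, ETHE1, TST and SUOX were far above CBS, CTH, CDO1 and CSAD. MPST lay between SQOR and SUOX. The genes were grouped so with the order in view, and protein was not measured.

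The order of levels was tested between neighbours in mean log2 FPKM, each animal serving as its own pair (exact sign-flip permutation test over 12 animals, 9 neighbour pairs). The test measures spread among animals only. An error in gene length or read mapping that repeats in every animal would not show in it, which matters most for small steps. ETHE1 exceeded TST by 0.18 ± 0.15 on the log2 scale (SD, n = 12) and did so in 10 of 12 animals (adjusted p = 0.00791, exact permutation). TST and SELENBP1 could not be told apart in level, with a mean difference of 0.26 ± 0.82 and TST higher in 5 of 12 animals (adjusted p = 0.342, exact permutation). This order pools the diets. In the control group alone SELENBP1 came first by mean log2 FPKM, before ETHE1 and TST, and was above TST in 5 of 6 animals, whereas in the treated group it came after both and was above TST in 2 of 6. In either group alone all 9 neighbour pairs missed the adjusted threshold. With 6 animals the test allows no unadjusted p-value under 0.0312, and so it missed even SUOX and CSAD. SUOX lay above CSAD in every animal of both groups. These misses therefore do not show equal levels. SELENBP1 was the highest of all 10 genes in 4 control animals and in 1 treated animal. It exceeded SQOR in 12 of 12 animals, by 1.42 ± 0.80 (adjusted p = 0.00146, exact permutation). The steps from SQOR to MPST (0.71 ± 0.82) and from MPST to SUOX (0.57 ± 0.60) held in 11 and 10 animals, with adjusted p-values of 0.0125 and 0.0132 by the same exact permutation test. Below these came a step of 2.22 ± 0.37 from SUOX to CSAD in 12 of 12 animals. CSAD exceeded CBS by 0.70 ± 0.62 (adjusted p = 0.00439, exact permutation), whereas the transsulfuration enzymes CBS and CTH could not be told apart (0.17 ± 0.83, adjusted p = 0.487, exact permutation). The largest step, 3.06 ± 0.88, lay between CTH and CDO1. Over all 12 animals the smallest possible unadjusted p-value of this test was 0.000488.

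**Figure D1:**
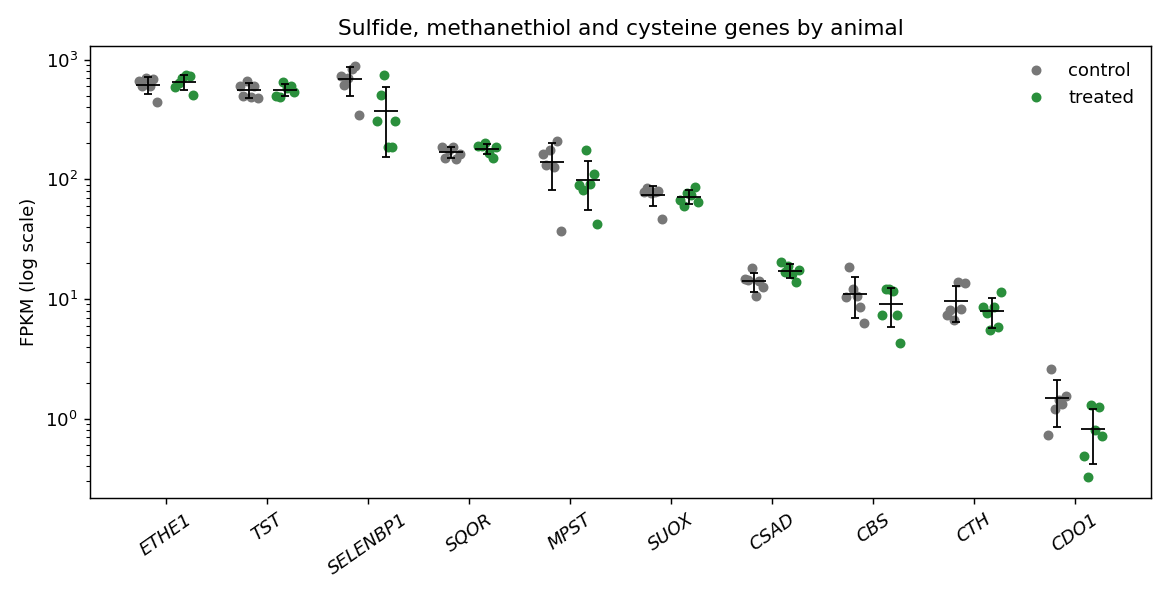
FPKM on a log axis of the 10 genes in each animal, with control animals in grey and treated animals in green; black marks are the group mean and bars the SD (n = 6). ETHE1, TST and SELENBP1 lie at the top and CDO1 at the bottom, and the treated points of SELENBP1 spread from 185 to 752 FPKM.

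SELENBP1 (gene 102394024), methanethiol oxidase, had the largest difference between the diets of the 10 genes. Its FPKM in the control group were 346 at the lowest, 719 at the median and 878 at the highest, from between 6614 and 19541 reads per animal. In the treated group the lowest was 185, the median 306 and the highest 752. The groups overlapped, since control replicate 6 was low and treated replicate 3 was high, but 4 of 6 treated animals lay below every control, and treated animals were lower in 31 of 36 pairs of a treated with a control animal. Means were 685 ± 191 FPKM for the control group and 373 ± 219 for the treated group (SD, n = 6 each), a control mean 1.83-fold that of the treated group. On the log2 scale, treated minus control came to -1.005 (standard error 0.33, 95% interval from -1.72 to -0.29). In bulk tissue, fewer cells of a type and less RNA per cell cannot be told apart. A stromal score was taken as the mean level of the tested genes of the smooth muscle and fibroblast lists. Adjusted for it, the log2 fold change of SELENBP1 was -1.29, and with control replicate 6 and treated replicate 6 left out it was -1.17. With single animals left out it ranged from -1.245 (without treated replicate 3) to -0.840 (without treated replicate 5). Its share of the summed FPKM of the 10 genes was 29.6% ± 4.59 for the 6 controls and 18.2% ± 7.81 for the 6 treated animals (SD).

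SELENBP1 also varied widely among animals of the same diet. Its within-group SD of 0.66 on the log2 scale was larger than that of 84.5% of all genes tested, and treated replicate 3 had 752 FPKM where treated replicates 4 and 5 had 188 and 185. With at least 3981 reads per animal, counting error alone would give an SD of only 0.016. After removal of the group means, the 5 genes whose log2 FPKM were most like those of SELENBP1 over the 12 animals were SERINC2, FGF11, VEGFA, LOC102415205 and LOC112585459, with Pearson r between 0.818 and 0.852. These are the highest values over all genes tested and are given with no test, and FGF11 and LOC102415205 rest on as few as 4 and 5 reads in an animal. VEGFA, the vascular growth factor, was at 18.6 ± 3.38 FPKM for controls and at 20.1 ± 6.15 for treated animals (SD, n = 6 each), with a log2 fold change of 0.07 and a standard error of 0.20.

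The sulfide oxidation enzymes downstream of SELENBP1 differed little. SQOR (gene 102390525) ranged from 147 to 187 FPKM in controls with a median of 171, and from 151 to 200 in treated animals with a median of 188. The groups overlapped, with 3 treated animals above every control, and the log2 fold change was 0.10 (standard error 0.11, 95% interval from -0.13 to 0.32). SQOR was among the least variable genes measured, with a within-group SD of 0.15 that was above that of only 4.91% of genes tested. That share takes in genes of all levels, while SQOR had at least 3099 reads per animal, and genes of like level were not compared. ETHE1 (gene 102405140) ranged from 445 to 705 FPKM in controls with a median of 634 and from 509 to 741 in treated animals with a median of 671. Its log2 fold change was 0.08 (95% interval from -0.22 to 0.39), and it was -0.01 without control replicate 6. TST (gene 102416661) had a median of 549 FPKM in controls and 561 in treated animals, with a log2 fold change of 0.02 and an interval from -0.25 to 0.28. SUOX (gene 102397170) ranged from 46.2 to 84.3 FPKM in controls and from 60.4 to 86.9 in treated animals, with a log2 fold change of -0.03 and an interval from -0.35 to 0.29. Single animals moved these small differences, as ETHE1 was at 0.15 without treated replicate 6 and SUOX at -0.16 without control replicate 6 and 0.02 without treated replicate 2.

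MPST (gene 102415676) was the most variable of the genes, with a within-group SD of 0.79, above that of 90.4% of genes tested. Control FPKM were 37.0 at the lowest, 148 at the median and 209 at the highest, and treated FPKM were 42.6, 91.0 and 175. Replicate 6 of each group was the low animal, and the groups overlapped over almost their whole range. The log2 fold change was -0.45 (standard error 0.39, interval from -1.30 to 0.39). It was -0.80 without control replicate 6, -0.23 without treated replicate 6 and -0.58 without both.

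The enzymes that form cysteine lay close together. CBS (gene 102391003) had FPKM from 6.28 to 18.4 with a median of 10.6 in controls and from 4.30 to 12.1 with a median of 9.52 in treated animals. CTH (gene 102397937) had FPKM from 6.72 to 13.9 with a median of 8.13 in controls and from 5.56 to 11.5 with a median of 8.06 in treated animals. The groups overlapped for both genes, and the log2 fold changes were -0.29 for CBS (standard error 0.29, 95% interval from -0.91 to 0.33) and -0.26 for CTH (standard error 0.23, interval from -0.75 to 0.23). Single animals moved both. CBS was at -0.09 without treated replicate 6, -0.13 without control replicate 2 and -0.44 without control replicate 6. CTH was at -0.14 without control replicate 4, -0.15 without control replicate 6 and -0.17 without treated replicate 3. In the animal with the highest CBS, control replicate 2, CTH was close to its group median.

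Cysteine breakdown was represented by CDO1 and CSAD, which stood on opposite sides of 0. CDO1 (gene 102406101) was counted with 14 to 48 reads per animal in the control group, 164 in all, and with 6 to 24 in the treated group, 91 in all. Its FPKM in controls were 0.724, 1.38 and 2.62 at the lowest, the median and the highest, and 0.324, 0.761 and 1.30 in treated animals. All 6 treated animals lay below the control median and 3 lay below every control, while control replicate 1 was as low as the middle of the treated group. The means were 1.47 ± 0.628 and 0.816 ± 0.397 FPKM (SD, n = 6 each), and treated minus control was -0.90 on the log2 scale (standard error 0.38, interval from -1.71 to -0.10). CDO1 passed the filter of 40 reads in at least 1 animal only through control replicate 2, in the group where it was higher. With so few reads, counting error alone would give an SD of 0.36 on the log2 scale, against 0.69 measured within groups. A pseudocount of 1 in place of 0.01 FPKM brought the log2 fold change to -0.44, as CDO1 lies near that level. Adjusted for the stromal score it was -0.73. How far the lower smooth muscle and fibroblast levels bear on CDO1 was not tested further.

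CSAD (gene 102398852), the decarboxylase after CDO1, had FPKM of 10.6, 14.3 and 18.3 at the lowest, the median and the highest in controls and of 13.96, 17.2 and 20.3 in treated animals. Treated animals were higher in 29 of 36 pairs, and 2 lay above every control. The log2 fold change was 0.30 (standard error 0.14, interval from 0.01 to 0.60). Up to 733 reads per animal stood behind these values, and counting error alone would give an SD of 0.061 against 0.23 measured within groups.

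**Figure D2:**
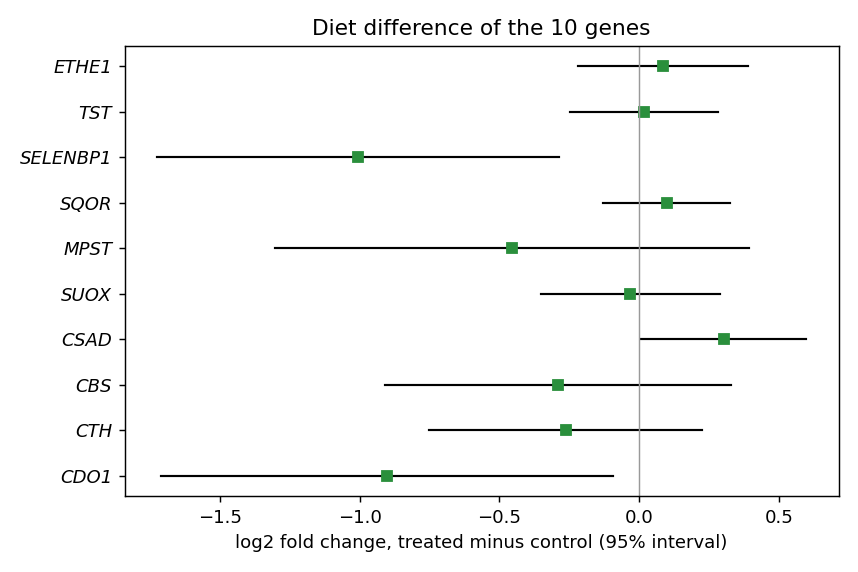
Log2 fold change of each gene, treated minus control, as green squares with 95% intervals from limma (n = 6 per group). SELENBP1 and CDO1, with whose values in view the set was chosen, lie farthest to the left, CSAD lies farthest to the right, and the intervals of SELENBP1, MPST and CDO1 are the widest. The plot is a description and not a test.

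In the limma fit over all 12742 genes, 162 genes had a nominal p-value below 0.05, which is 1.27% of those tested, and 0 passed 0.05 after Benjamini-Hochberg adjustment, the smallest adjusted p-value being 0.9996. With voom on the recovered reads 145 had a nominal p-value below 0.05 and again 0 passed after adjustment. All 10 genes of the set were tested, and SELENBP1, CDO1 and CSAD were the 3 with a nominal p-value below 0.05. CDO1 was not among them with voom, CSAD was not with median ratio scaling and neither was with the stromal score, and CSAD was among them in only 2 of the 12 fits with 1 animal left out. Since the choice of the set used this comparison, no more is read from that count. The groups overlapped for all 10 genes, as they did for all but 7 of the genes tested (0.0549%). Of the 10 genes, 6 had a lower and 4 a higher mean in the treated group, with a median log2 fold change of -0.15, against 0.0050 over all genes tested. With control replicate 6 and treated replicate 6 left out, a choice made after seeing the data, SELENBP1 and MPST were the 2 below 0.05.

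**Figure D3:**
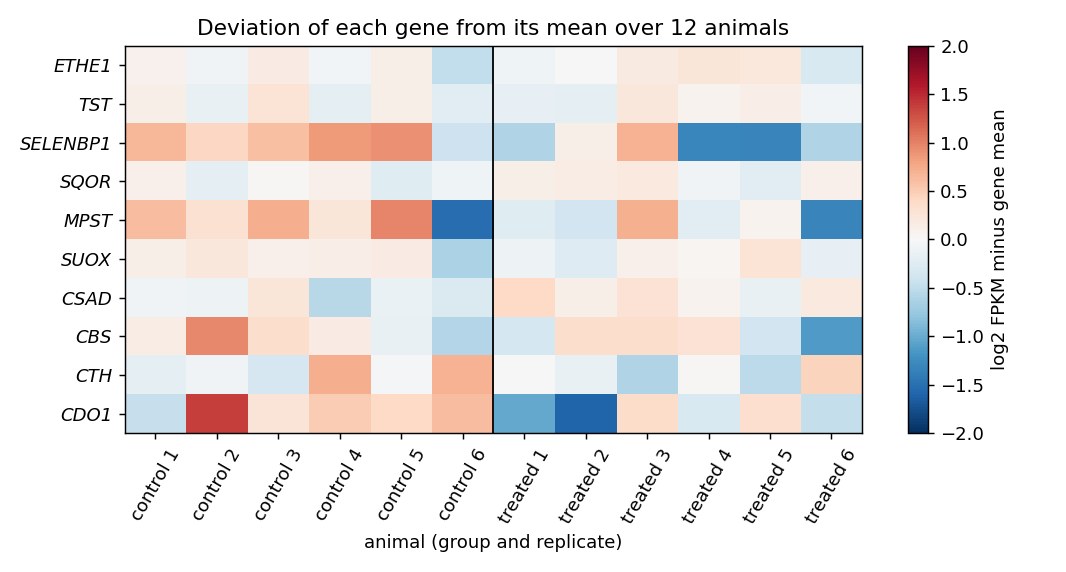
Log2 FPKM of each gene in each animal minus that gene's mean over the 12 animals, in colour from blue (lower) to red (higher). Replicate 6 of each group is blue for ETHE1, MPST, SUOX and CBS and red for CTH, and treated replicates 4 and 5 are the darkest blue for SELENBP1.

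How the genes moved together among animals of the same diet does not depend on the diet comparison and was tested for the 45 pairs after removal of the group means (100000 permutations of animals within groups, two-sided, Benjamini-Hochberg over the pairs). ETHE1 and MPST varied together, with a Pearson r of 0.910 (permutation p = 0.00105, adjusted 0.0274) and a Spearman rho of 0.741 (permutation p = 0.00784, adjusted 0.0882), over n = 12. The Pearson r was 0.983 in controls and 0.803 in treated animals. MPST and CTH went in opposite directions, with an r of -0.792 (permutation p = 0.00122, adjusted 0.0274) and a rho of -0.783 (permutation p = 0.00371, adjusted 0.0556). These were the 2 pairs with an adjusted Pearson p-value below 0.05. Both rest in part on replicate 6 of each group, which had the lowest MPST and ETHE1 of its group and high CTH. Without the 2 animals farthest from the median of the gene named first, r was 0.602 for ETHE1 with MPST and -0.659 for MPST with CTH. Without control replicate 6 and treated replicate 6, r was 0.597 (adjusted permutation p = 0.560) and -0.672 (adjusted permutation p = 0.237), and 0 pairs were below 0.05. Leaving out 1 of control replicates 1, 2, 3, 4 and 6 or treated replicates 1, 5 and 6 also ended both calls, and leaving out treated replicate 3 ended that of MPST with CTH, while with single animals left out r stayed between 0.818 and 0.952 for the former pair and between -0.909 and -0.731 for the latter.

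MPST and TST encode related sulfurtransferases and stand next to each other in RefSeq's NDDB_SH_1 annotation, a build other than that of the files, for which no positions are given. Their levels followed each other in rank, with a rho of 0.846 (permutation p = 0.000690, adjusted 0.0310), while the Pearson r was 0.665 (permutation p = 0.0185, adjusted 0.104). Without the 2 animals farthest from the median of TST, r was 0.570, and without replicate 6 of each group it was 0.808 (adjusted permutation p = 0.0810). SELENBP1 followed none of the other 9 genes at an adjusted p-value below 0.05. The highest r was with SQOR, the enzyme that takes up the sulfide SELENBP1 forms, at 0.578, with a rho of 0.587 (permutation p = 0.0650 and 0.0569, adjusted 0.209 and 0.304). This r was 0.144 within controls and 0.864 within treated animals, a difference that was not tested, and 0.554 without the 2 animals farthest from the median of SELENBP1. With MPST the r was 0.561 and the rho 0.497 (permutation p = 0.0543 and 0.109, adjusted 0.204 and 0.376), and r was 0.0936 without those 2 animals, so that this relation rests on them.

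**Figure D4:**
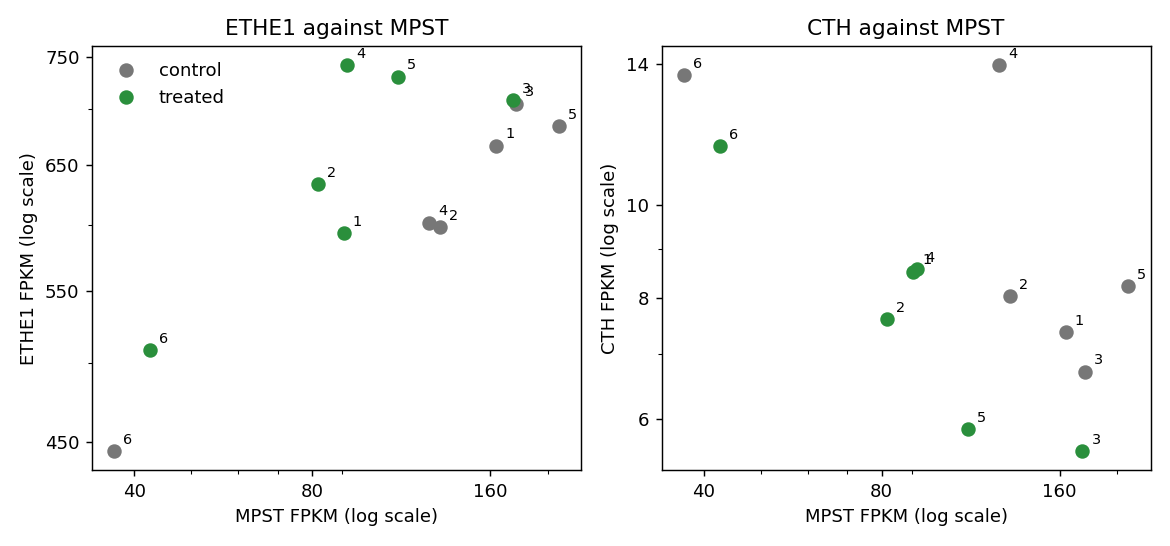
FPKM of ETHE1 (left) and CTH (right) against those of MPST on log axes, 1 point per animal, numbered by replicate, with controls in grey and treated animals in green. Replicate 6 of each group lies at the low end of MPST, with low ETHE1 and high CTH.

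Each gene was also compared with the mean log2 level of the tested genes in each marker list, again after removal of the group means. This took in the 5 lists that had at least 3 genes tested. Of 50 such pairs, 0 had an adjusted p-value below 0.05, and 2 had an unadjusted Pearson p-value below 0.05. These were CBS with squamous epithelium, with an r of 0.640 and a rho of 0.483 (permutation p = 0.0398 and 0.138), and MPST with squamous epithelium, with an r of 0.616 and a rho of 0.175 (permutation p = 0.0311 and 0.597). Without the 2 animals farthest from the median of CBS or MPST, r was 0.339 and -0.302, so that the latter relation rests on those animals. The epithelial list itself was lowest in replicate 6 of each group, at 3434 and 3389 FPKM. For CDO1, the 5 genes with the most similar log2 FPKM were MDFIC, FSBP, RPAIN, SCN11A and LOC102408338, with r between 0.773 and 0.837, given with no test.

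The wider sulfur pathways were described by 73 listed genes, of which 67 were in the table and 58 were tested. Of these 58, 29 had a higher and 29 a lower mean in the treated group, with a median log2 fold change of -0.00035. In limma, 1 of them was higher and 1 lower at a nominal p-value below 0.05, where 0.801% and 0.471% of all genes were, and 0 had an adjusted p-value below 0.05. PEMT, which makes phosphatidylcholine by using S-adenosylmethionine, was the lower gene. Its FPKM were 0.896, 1.18 and 1.43 at the lowest, the median and the highest in controls and 0.551, 0.712 and 1.14 in treated animals, with a log2 fold change of -0.62 and an SE of 0.24 (exact permutation p = 0.0173, limma adjusted p = 0.9996). PEMT was counted with only 23 to 59 reads per animal, and a pseudocount of 1 FPKM brought its log2 fold change to -0.30. It was placed in the list with its change in these animals known. GSS, glutathione synthetase, was the higher gene, with 38.0, 45.4 and 51.5 FPKM in controls and 46.4, 52.4 and 57.0 in treated animals. Treated animals were higher in 32 of 36 pairs, with a log2 fold change of 0.22 and an SE of 0.096 (exact permutation p = 0.0173, limma adjusted p = 0.9996). The exact test used the same comparison as the limma call that picked out PEMT and GSS, so these exact p-values are no separate support. The nominal call of GSS was lost with median ratio scaling and without any 1 of control replicates 1, 2, 4 and 5 or treated replicates 3, 4, 5 and 6. That of PEMT was lost with the stromal score (log2 fold change -0.52) and without control replicate 1 or 2 or treated replicate 3. With the stromal score 1 listed gene was still lower at a nominal p-value below 0.05, a gene other than PEMT.

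Among the other listed pathways, the highest genes listed under the methionine cycle were AHCYL2 and AHCY. AHCYL2, whose protein resembles S-adenosylhomocysteine hydrolase, stood at 539 ± 75.5 FPKM against 557 ± 59.6. AHCY, the hydrolase itself, stood at 400 ± 77.2 and 414 ± 54.2. Of 15 genes of persulfide and sulfur transfer, the highest were thioredoxin TXN (276 ± 50.2 and 295 ± 34.1 FPKM) and the small sulfurtransferase TSTD1 (177 ± 23.8 and 178 ± 40.2). Sulfate activation was led by PAPSS2, which makes the active form of sulfate, at 286 ± 52.0 and 257 ± 49.5, and by the phosphatase BPNT1 at 109 ± 15.9 and 119 ± 15.9. TPMT, a thiol methyltransferase, stood at 253 ± 37.4 and 269 ± 23.0, and GCLM, the regulatory subunit for glutathione synthesis, at 60.4 ± 17.7 and 66.9 ± 14.6. GOT2 and GOT1, the aminotransferases that also act on cysteine sulfinate, stood at 87.6 ± 4.79 and 86.8 ± 5.89 and at 14.2 ± 1.93 and 15.3 ± 1.78. The amino acid carriers SLC1A5 (17.1 ± 6.76 and 18.3 ± 8.18) and SLC1A4 (13.3 ± 5.17 and 12.01 ± 2.06) led the transport list. For the molybdenum cofactor that SUOX needs, MOCS2 was at 19.96 ± 1.73 and 19.3 ± 1.29 and GPHN at 11.8 ± 2.70 and 11.9 ± 1.46. All of these are mean FPKM ± SD with n = 6 each, controls first, and their exact permutation p-values lay between 0.294 and 0.955.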

How the data were processed

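Total RNA of the ruminal wall was sequenced from 12 animals, 1 stranded library each. Per the labels and the study's methods, reads were trimmed with Trimmomatic 0.39, aligned with STAR 2.5.2b to UOA_WB_1 and counted by strand with featureCounts 2.0.0; how FPKM were computed is not given in the sources used here. The authors deposited FPKM values for 16 columns, of which 12 matched the sample titles and the other 4 were not used. Within each gene, FPKM were whole multiples of 1 read, within 0.001 of a read for 100% of the genes above 0, which gave the reads and depth behind every value.

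The diets were compared on log2(FPKM + 0.01) by limma 3.58.1 with a mean-variance trend (R 4.3.3), for the 12742 genes with at least 40 reads, scaled to the median depth, in at least 1 animal, with Benjamini-Hochberg adjustment. A fold change on this scale understates that of low genes. Permutation tests used Python 3.11.15 with numpy 2.4.6. The limma fit was also run on simulated counts with known fold changes, and its outcome is not reported here. Noise was drawn separately for each gene and animal, so structure shared among animals was not simulated. Equal replicate numbers in the labels name different animals. No batch is given in the sources used here. Alternatives were pseudocounts, filters, scaling, voom on the reads, robust fits, a replicate block, a stromal covariate and each animal left out.

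The members and lists were chosen with earlier results of these data known. The genes named were all 10 members, listed sulfur genes with a nominal p-value below 0.05 or among the 2 highest of their pathway, and the 5 genes most like SELENBP1 and CDO1. In the wider list 3 genes, CARS1, BPNT2 and BHMT2, were matched by gene ID.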

Additional observations from a re-analysis of the deposited data

Results flagged for a closer look

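Among 62 groups of 6 animals tested for a value far from the rest by its gap over the range, 4 stood out. This is near the share that chance marks, about 1 in 20. All 4 were the lowest value of control replicate 6, so they come from a single library and are not separate observations. They were ETHE1 at 445 FPKM, MPST at 37.0 FPKM, SUOX at 46.2 FPKM and AHCY at 256 FPKM. This library also had the fewest counted fragments, 10531541, and the lowest summed epithelial markers of the control group, 3434 FPKM; their part in these values was not tested.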

How the results depend on the processing

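The number of genes with a nominal p-value below 0.05, 162, was 562 with all genes above 0, 301 with at least 0.1 FPKM in 6 animals, 364 with the stromal score, 317 without replicate 6 of each group and 145 to 331 with single animals left out, the highest without treated replicate 6. With the replicate number as a block it was 325. Equal numbers correlated at over 0.1 in only 4 of 6 pairs (r from -0.012 to 0.411) and were therefore not taken as pairs. Still, 8 of 12 animals correlated best with their own number. Unequal numbers had a mean r of -0.039, but group means were removed first, which lowers it when equal numbers correlate. The numbers in the sample titles differ between the groups at each equal replicate number. Whether animals shared some structure was not tested. The count of adjusted p-values below 0.05 was 0 in every setting, and the nominal count was 145 with voom.

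Of the set, 3 genes had a nominal p-value below 0.05; 1 did with the stromal score, and 1 to 3 did with single animals left out, 1 without control replicate 2 or treated replicate 1 or 2. CDO1 was not among them without control replicate 2 or 6 or treated replicate 1 or 2, and CSAD was among them only without control replicate 3 or treated replicate 5. MPST was added without control replicate 6 (log2 fold change -0.80) and with the replicate block, which changed no other call of a named gene. As the set was chosen with this comparison known, these counts are no support for it. For the wider list, the higher count was 0 after median ratio scaling and 0 to 1 with animals left out, and the lower count was 1 after median ratio scaling and 0 to 1 with animals left out.

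In either group alone, all 9 neighbour pairs in the order of levels missed the adjusted threshold, where 6 animals allow no unadjusted p-value under 0.0312. Without replicate 6 of each group 1 pair could not be told apart. The 2 correlated pairs became 1 after median ratio scaling, 0 without replicate 6 of each group and 0 to 3 with animals left out. CDO1 had 6 to 48 reads per animal.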
